A study of Rattus norvegicus with 4 samples.

Results

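The 61 genes described here encode the enzymes that make, destroy and read cyclic nucleotides, together with the regulators of G-protein signalling (RGS) that lie upstream of them. They were taken by symbol from a list of histone H3 lysine 27 trimethylation (H3K27me3) peaks of the rat sciatic nerve. The 61 are all genes of the list whose name begins with Pde, Adcy, Rgs and a digit, Gucy1, Gucy2, Prkg1 or Prkg2, out of 10647 genes that the list names. They comprise 24 phosphodiesterase genes (Pde, counting the anchor gene Pde4dip), 8 adenylyl cyclase genes (Adcy), 9 guanylyl cyclase genes (Gucy), 18 Rgs genes (counting the anchor genes Rgs7bp and Rgs9bp) and 2 genes of cGMP-dependent kinases (Prkg). The rule uses symbols, and at least 1 peak had to name the gene.

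The tissue was sciatic nerve of male Sprague Dawley rats of postnatal day 42, for which the labels name no genetic change. It came from the sham side, where only the skin was opened, and was taken 1 day after transection of the nerve in the opposite leg. There were 2 H3K27me3 libraries, from chromatin cut with micrococcal nuclease, and 2 libraries of the corresponding input. The authors joined the H3K27me3 data into a single list of 129550 peaks on assembly rn5. Each peak has 1 score for both libraries together, so no replicate error can be given and no test between samples exists. The counting intervals below take each score step of 0.206 as 1 sequenced tag, which is an assumption, and cover counting error alone. The depth of the libraries is unknown. Nothing says whether the libraries came from separate animals. The list measures no RNA, so the tissue cannot be checked by its transcripts, and a peak in every cell of the nerve and a peak in some of its cell types cannot be told apart. Of the marker genes, the Schwann cell gene Sox10 had a promoter peak of 150 bp with a score of 4.13 and Erbb3 one of 117.2, the fibroblast gene Pdgfra had 561.3, the endothelial gene Kdr 65.6 and the mural gene Notch3 58, while Pecam1, Cdh5, Acta2 and Ptprc had none.

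Cyclic AMP is made by adenylyl cyclases under the control of stimulatory and inhibitory G proteins, acts through protein kinase A and Epac, and is removed by phosphodiesterases. In the Schwann cell it is a differentiation signal: axonal contact raises it, partly through the receptor Adgrg6, and agents that raise it, such as the cyclase activator forskolin, drive cultured Schwann cells towards the myelinating state and induce Egr2. RGS proteins shorten G-protein signals by speeding GTP hydrolysis on the alpha subunit. H3K27me3 is deposited by Polycomb repressive complex 2, typically over CpG-rich starts of genes that are silent in the cell.

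The promoter windows of 7 members are printed to show their sequence, and the promoter calls below do not use them. They include 4 with peaks across or beside the start (beside it, outside the window, at Adcy1 and for the broad peaks of Rgs7bp). The others are the neighbours Rgs4 and Rgs5, of which only the first has a promoter peak, and Rgs2. The start of Rgs2 has many CG pairs and the lowest promoter peak score. The sequences are from RefSeq on GRCr8, run from 250 bases before to 50 after the annotated start, and read 5′ to 3′ on the gene's strand. Capitals mark CG dinucleotides. Whether each start is the one used on rn5 was not tested.
Rgs7bp (chr2:37965204-37965503, strand -): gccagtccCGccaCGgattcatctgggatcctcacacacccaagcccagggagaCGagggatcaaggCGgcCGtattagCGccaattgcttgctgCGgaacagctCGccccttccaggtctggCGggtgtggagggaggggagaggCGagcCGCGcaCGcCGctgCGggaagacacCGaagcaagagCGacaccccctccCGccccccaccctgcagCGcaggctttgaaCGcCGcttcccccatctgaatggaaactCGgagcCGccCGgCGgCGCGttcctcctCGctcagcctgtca
Adcy1 (chr14:86124869-86125168, strand +): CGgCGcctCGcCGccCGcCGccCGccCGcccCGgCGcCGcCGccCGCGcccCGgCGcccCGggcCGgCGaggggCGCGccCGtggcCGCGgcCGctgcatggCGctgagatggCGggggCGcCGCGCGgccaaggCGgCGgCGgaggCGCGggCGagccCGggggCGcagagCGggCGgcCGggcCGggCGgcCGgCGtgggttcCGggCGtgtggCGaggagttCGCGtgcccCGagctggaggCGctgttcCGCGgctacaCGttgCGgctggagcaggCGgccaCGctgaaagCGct
Prkg1 (chr1:239052135-239052434, strand -): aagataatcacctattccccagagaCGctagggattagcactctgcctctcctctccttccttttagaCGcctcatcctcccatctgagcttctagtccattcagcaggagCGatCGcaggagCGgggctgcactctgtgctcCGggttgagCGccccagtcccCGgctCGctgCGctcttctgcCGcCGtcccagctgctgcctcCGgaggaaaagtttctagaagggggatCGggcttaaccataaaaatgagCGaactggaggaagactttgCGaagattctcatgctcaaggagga
Gucy1a3, now Gucy1a1 (chr2:169779574-169779873, strand -): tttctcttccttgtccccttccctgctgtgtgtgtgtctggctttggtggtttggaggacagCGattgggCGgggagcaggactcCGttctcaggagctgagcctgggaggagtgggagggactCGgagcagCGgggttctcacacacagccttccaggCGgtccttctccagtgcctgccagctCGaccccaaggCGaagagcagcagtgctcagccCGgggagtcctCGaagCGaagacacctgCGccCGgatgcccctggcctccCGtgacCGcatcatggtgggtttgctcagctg
Rgs4 (chr13:84475835-84476134, strand -): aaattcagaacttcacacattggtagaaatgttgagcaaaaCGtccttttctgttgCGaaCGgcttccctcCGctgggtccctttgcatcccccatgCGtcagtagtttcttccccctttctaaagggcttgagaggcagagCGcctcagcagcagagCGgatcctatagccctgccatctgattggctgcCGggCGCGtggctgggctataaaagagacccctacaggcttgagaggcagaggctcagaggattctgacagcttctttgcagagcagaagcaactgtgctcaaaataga
Rgs5 (chr13:84380827-84381126, strand +): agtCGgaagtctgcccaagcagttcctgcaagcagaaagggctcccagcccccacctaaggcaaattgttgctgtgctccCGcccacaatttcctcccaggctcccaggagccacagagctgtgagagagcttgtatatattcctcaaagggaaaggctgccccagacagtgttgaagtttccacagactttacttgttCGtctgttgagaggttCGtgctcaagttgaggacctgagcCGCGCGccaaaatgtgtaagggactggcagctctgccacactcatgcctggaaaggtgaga
Rgs2 (chr13:58352617-58352916, strand -): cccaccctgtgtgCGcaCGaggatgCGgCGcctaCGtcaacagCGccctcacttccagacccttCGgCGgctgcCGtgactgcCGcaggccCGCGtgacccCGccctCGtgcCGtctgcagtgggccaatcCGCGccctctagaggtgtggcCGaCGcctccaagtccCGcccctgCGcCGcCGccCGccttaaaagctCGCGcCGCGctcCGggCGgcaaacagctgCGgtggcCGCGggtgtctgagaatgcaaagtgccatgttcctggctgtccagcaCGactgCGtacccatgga

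The Adcy1 window held 60 CG pairs and that of Rgs2 35, against 28 for Rgs7bp, 16 for Prkg1, 15 for Gucy1a3, 10 for Rgs4 and 7 for Rgs5. The windows follow the annotated starts, and how much of each is coding sequence was not tested, which matters most for Adcy1. The table had windows for 46 of the 61 members (75.4%), so a comparison of base composition over all members is void. The full cyclic AMP response element, searched as TGACGTCA on both strands (the motif is its own reverse complement), was in none of the 59 windows of these members and in 1.83% of all 33469 windows of the table.

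Most of these genes carried the mark at a promoter. A promoter peak is a peak assigned to the gene whose nearer edge lies within 1000 bp of the transcription start site (TSS) or that contains the TSS. Of the 61 members 44 had at least 1 (72.1%, 95% Wilson interval 59.8 to 81.8%), against a background of 38.4% of the 10647 named genes. Promoter peaks with a score in the top 25% of all peaks, 9.9 or more, were found at 31 members (50.8%, 38.6 to 62.9%), against 28.1%. Peaks that contain the TSS were found at 17 members (27.9%, 18.2 to 40.2%), against 13.8%. These intervals treat genes as independent, and the members share families and, in places, neighbourhoods. The members are longer than other genes, with a median length of 91403 bp against 22184 bp in GRCr8. Among genes at or above that overall median 36 of 49 members had a promoter peak (73.5%, background 38.6%), and below it 8 of 12 (66.7%, background 38.4%).

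**Figure D1:**
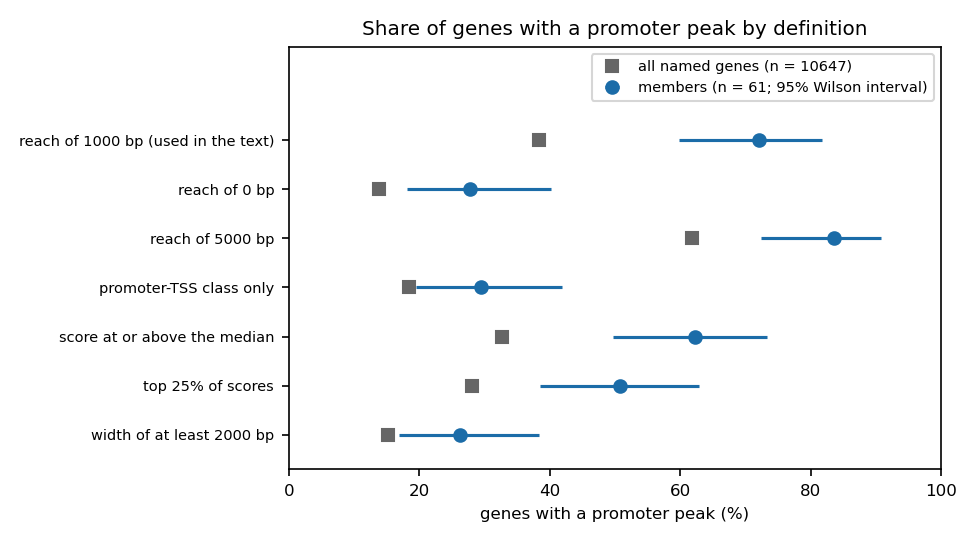
Share of genes with a promoter peak under each definition, in percent on the horizontal axis; circles are the 61 members with 95% Wilson intervals and squares all 10647 named genes. The circle lies to the right of the square in every row, for example 72.1% against 38.4% at a reach of 1000 bp and 29.5% against 18.4% for peaks centred in the promoter-TSS class.

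The peaks themselves were of ordinary strength. The median of each member's highest promoter peak score was 38.4 (44 genes), against 40.6 for all 4088 genes with a promoter peak, and the median width of the widest was 1330 bp against 1341 bp. Of the 44 members 31 reached the top 25% of scores (70.5%, background 73.1%). The largest sizes were missing: none of the 77 promoter peaks of the members was 5000 bp or wider, against 600 of all 6226 promoter peaks (9.64%). The widest, at Pde4a, was 4992 bp and so just under that limit. The families differed in make-up. Of the genes with a promoter peak, 12 of 13 in the Rgs family and 12 of 16 in the Pde family lay in the top 25%, but 3 of 6 in the Adcy family and 3 of 8 in the Gucy family. These are counts over few genes and were not tested against each other.

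**Figure D2:**
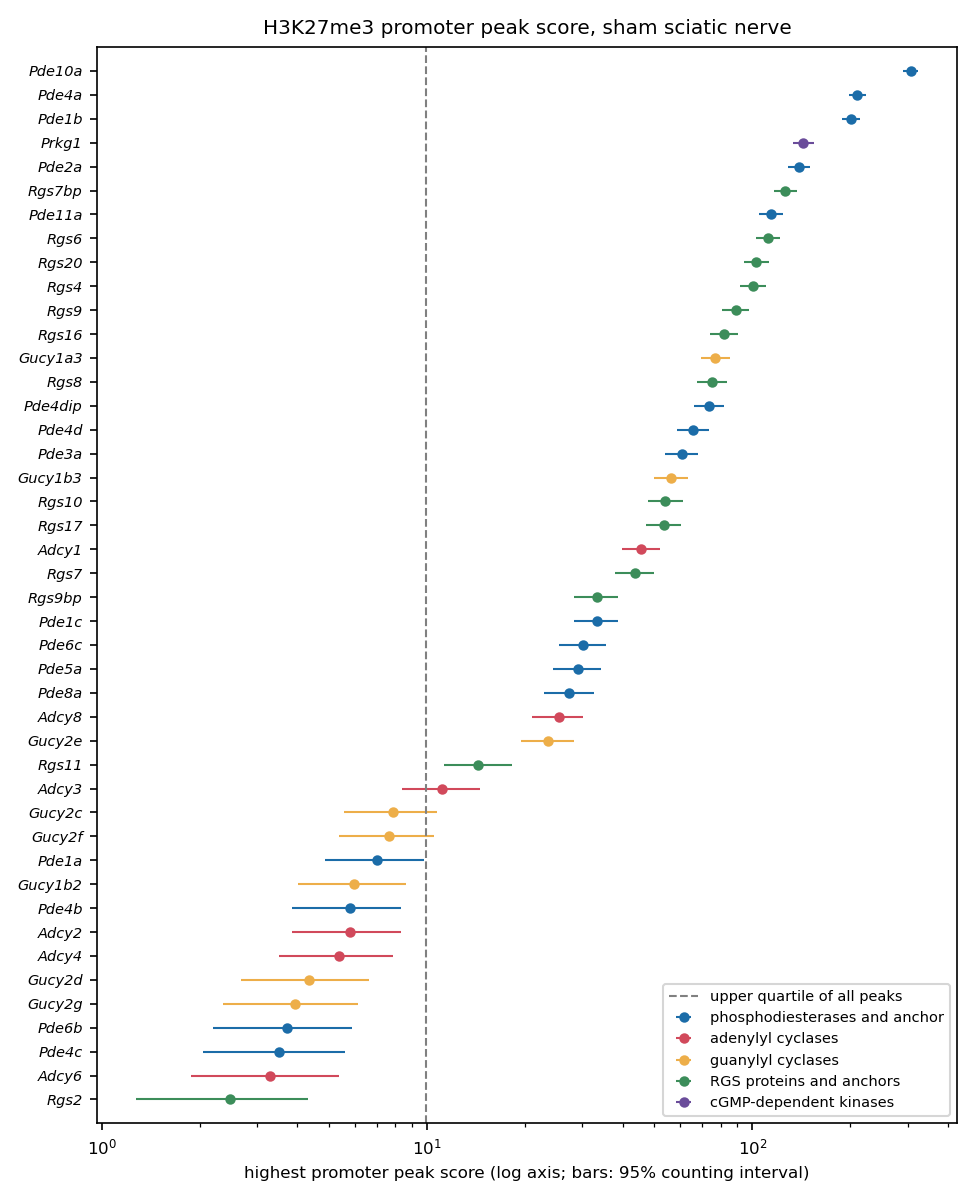
Highest promoter peak score of the 44 members with a promoter peak, on a log axis, coloured by family; bars are 95% counting intervals and the dashed line is the upper quartile of all peaks, 9.9. Pde10a at 306.7 leads, phosphodiesterase and Rgs genes fill most of the upper part, and 13 genes lie left of the line.

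The phosphodiesterases that degrade both cyclic AMP and cyclic GMP held 4 of the 5 highest promoter peak scores of the Pde genes. Of 8 such genes named in the list 7 had a promoter peak and 6 one in the top 25% (all named genes 38.4% and 28.1%). Pde10a, an enzyme best known from striatal neurons, had the highest score of all 61 members, 306.7 (counting interval 291 to 323), for a peak of 4071 bp upstream of its TSS (chromosome 1, 53800821 to 53804892). A second peak of 3143 bp in intron 1 scored 115.3, and the gene ranked 367 by promoter score among the 4088. Pde1b, which calcium and calmodulin activate, had 201.3 (189 to 214) for a peak of 3691 bp centred in intron 2 (chromosome 7, 142899161 to 142902852). Pde2a, which cyclic GMP stimulates, had 139.4 (129 to 150) for a peak of 2708 bp (chromosome 1, 172755160 to 172757868), and a separate peak of 1536 bp with a score of 45.8 lay across another of its 3 TSS. Pde11a had a peak of 3556 bp over its TSS (chromosome 3, 69726050 to 69729606) with 114.1 (105 to 124). Lower scores belonged to Pde3a (60.6), which cyclic GMP inhibits, Pde1c (33.2) and Pde1a (7.01). Pde3b, the adipose and liver relative of Pde3a, had no promoter peak: the nearest edge, in a peak of 1500 bp scoring 39.4, was 1080 bp from the TSS.

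The cyclic AMP-specific phosphodiesterases had a promoter peak at 5 of 8 genes and one in the top 25% at 3, the latter near the 28.1% of all named genes. Pde4a had the widest promoter peak of all members, 4992 bp across the TSS (chromosome 8, 22242545 to 22247537), with a score of 210.2 (198 to 224). Pde4d, a gene with many alternative promoters, had promoter peaks at 4 of the 5 TSS that its peaks name. At the strongest of these starts a peak of 1859 bp in intron 1 scored 65.8 (58.8 to 73.4) and a peak of 1308 bp on the other side 45.8, while the highest score at the others was 17.7. Pde8a had 27.4. Pde4b and Pde4c had only short peaks, with scores of 5.78 (3.84 to 8.35) and 3.51 (2.04 to 5.61), so the gene family that rolipram inhibits spans the range from the second highest promoter peak score of the members to among the lowest. Pde7a, Pde7b and Pde8b had no promoter peak. Their closest peaks were centred 24526 bp upstream, 100285 bp upstream and 16690 bp downstream, and Pde8b is named by that single peak with a score of 2.68.

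Of the 5 phosphodiesterases specific to cyclic GMP 3 had a promoter peak, against 38.4% of all named genes. Pde5a, the target of sildenafil, had 29.1 (24.5 to 34.3) for 1047 bp in intron 1, and Pde6c, the cone photoreceptor enzyme, had 30.1 (25.4 to 35.4) for 1015 bp. Pde6b of the rod had promoter peaks of 150 bp with a highest score of 3.71, although broad peaks lie further out, as described below. Pde9a and Pde6a had none, and neither did the cone inhibitory subunit gene Pde6h, whose highest peak scored 64.8. The only peak of Pde6a, 543 bp with a score of 12.2, ended 106.5 bp beyond the limit. Of the matches that are not cyclic nucleotide phosphodiesterases, Pde4dip, which encodes an anchor of Pde4d, had 73.6 (66.2 to 81.7) for 2409 bp across the TSS (chromosome 2, 219478538 to 219480947). Pde12, a mitochondrial RNA-processing enzyme, had none among its 52 peaks, the highest of which scored 100.2 and was centred 13351 bp from the TSS.

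Of the 8 adenylyl cyclase genes 6 had a promoter peak and 3 one in the top 25% (all named genes 38.4% and 28.1%). Those 3, Adcy1, Adcy8 and Adcy3, encode forms that calcium and calmodulin stimulate. Adcy1, a cyclase of neurons, had 45.6 (39.8 to 52.0) for a peak of 1600 bp in intron 1 (chromosome 14, 80947394 to 80948994) and 28.3 for a second of 855 bp upstream. Adcy8, its close relative, had 25.4 (21.1 to 30.3) for 1116 bp across the TSS (chromosome 7, 105539594 to 105540710), with stronger peaks of 71.2 and 58.4 just beyond the reach on either side. Adcy3, known from olfactory signalling, had 11.1 (8.37 to 14.5) and 10.1 on its sides, close to the limit of 9.9. Adcy2 (5.78) and Adcy4 (5.36) of the class that G beta gamma stimulates, and Adcy6 (3.3), had peaks of at most 195 bp. Adcy7 had none, its closest peak being centred 33156 bp away. The assemblies disagree on where Adcy6 lies, X in the list and chromosome 7 in the newer table, which is so for no other member. Adcy5, which like Adcy6 is inhibited by calcium and by inhibitory G proteins, was the nearest miss of all 61 genes: a peak 1794 bp wide that scored 70.3 (63.1 to 78.2) ended 1068 bp upstream of its TSS (chromosome 11, 71934908 to 71936702).

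The soluble guanylyl cyclase, the receptor of nitric oxide, is a dimer of an alpha and a beta subunit, and the genes of its main form lie side by side with no other protein-coding gene between them in GRCr8. Both were marked. Gucy1a3 (now Gucy1a1) had 76.9 (69.3 to 85.2) for 2681 bp across the TSS (chromosome 2, 200513064 to 200515745), and Gucy1b3 (now Gucy1b1) had 56.3 (49.8 to 63.4) for 2083 bp, also across the TSS (200432040 to 200434123). Gucy1b2 had 5.98 for 260 bp (chromosome 15, 49311497 to 49311757), and Gucy1a2 had no promoter peak and is named by 1 peak with a score of 2.68. All 5 membrane guanylyl cyclase genes of the Gucy2 series had a promoter peak, but only 1 in the top 25% (all named genes 38.4% and 28.1%). That was the gene named Gucy2e in the list (23.5, 19.4 to 28.3, for 926 bp across the TSS, chromosome 10, 55594120 to 55595046), which the newer table calls Gucy2d, the retinal cyclase. The list's Gucy2d, now Gucy2e and an olfactory cyclase, had 4.33 for 150 bp (chromosome 1, 169602568 to 169602718). Gucy2c, the intestinal receptor of guanylin, had 7.84 for 330 bp (chromosome 4, 234999391 to 234999721). The retinal Gucy2f had 7.63 for 398 bp (X, 111919498 to 111919896) and Gucy2g 3.92 for 150 bp (chromosome 1, 283624944 to 283625094).

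Of the cyclic GMP-dependent kinases, Prkg1, the form of smooth muscle and sensory neurons, had a promoter peak, and Prkg2, the intestinal and brain form, had no promoter peak. Prkg1 had a peak of 3398 bp in intron 1 with a score of 143.4 (133 to 154; chromosome 1, 257533496 to 257536894). A second of 3434 bp with 82.5 (74.6 to 91.0) reached across the TSS from upstream. Further peaks of 87.7 in intron 1 and 55.1 upstream continued the series on both sides. Prkg2 was named by 62 peaks, more than any other member, of which the nearest had its centre 8164 bp upstream and the highest scored 52.8 (46.5 to 59.7).

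Of the 18 Rgs genes 13 had a promoter peak (all named genes 38.4%), and they are described by subfamily, whose differences were not tested. The members of the R7 group act with a G beta subunit in neurons and retina. All 4 of its genes, Rgs6, Rgs9, Rgs7 and Rgs11, had a promoter peak in the top 25% (all named genes 28.1%). Rgs6 had 111.6 (102 to 121) for 2744 bp (chromosome 6, 114451786 to 114454530), and Rgs9, which ends the light response in photoreceptors, had 89.1 (80.9 to 97.9) for 2074 bp (chromosome 10, 97297073 to 97299147), both across the TSS. Rgs7 had 43.5 and Rgs11 14.4. The 2 membrane anchors of that group were marked as well. Rgs7bp had 126.4 (117 to 137), the highest promoter peak score among the 18 Rgs genes, for 3325 bp upstream of the start (chromosome 2, 54742994 to 54746319), with 89.5 for 2024 bp in intron 1 and, between them, a call of 188 bp with 3.71 that holds the TSS. Rgs9bp had 33.2 for 811 bp. In the RZ group Rgs20 had 102.9 (94.1 to 112) for 2515 bp across the TSS (chromosome 5, 19195159 to 19197674) and a second peak of 99.4 in intron 1, and Rgs17 had 53.4. In the R12 group Rgs10, known from microglia and other leukocytes, had 54.0 and 52.6 on its sides, and Rgs14 had none.

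The R4 group, small proteins that act mainly as GTPase accelerators, had a promoter peak at 4 of 8 genes, near the 38.4% of all named genes. Rgs4 had 100.7 (91.9 to 110) for 2273 bp upstream of the TSS (chromosome 13, 92689491 to 92691764). Its neighbour Rgs5, a widely used pericyte marker, was named by only 2 peaks, the higher with 3.71 and centred 8797 bp from the TSS. No other protein-coding gene lies between the pair in GRCr8. Rgs16 had 82.1 (74.2 to 90.6; chromosome 13, 76143216 to 76145703) and its neighbour Rgs8, a gene of Purkinje cells, 75.3 (67.8 to 83.4), each for a peak that holds the TSS. In the cluster of Rgs1, Rgs2 and Rgs21 the promoters were nearly bare: Rgs2 had a single promoter peak of 150 bp with 2.48 (1.28 to 4.32), the lowest of the 44, and Rgs1 and Rgs21, expressed in leukocytes and taste cells, had none. Rgs3 also had none, its closest peak being centred 35940 bp upstream.

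**Figure D3:**
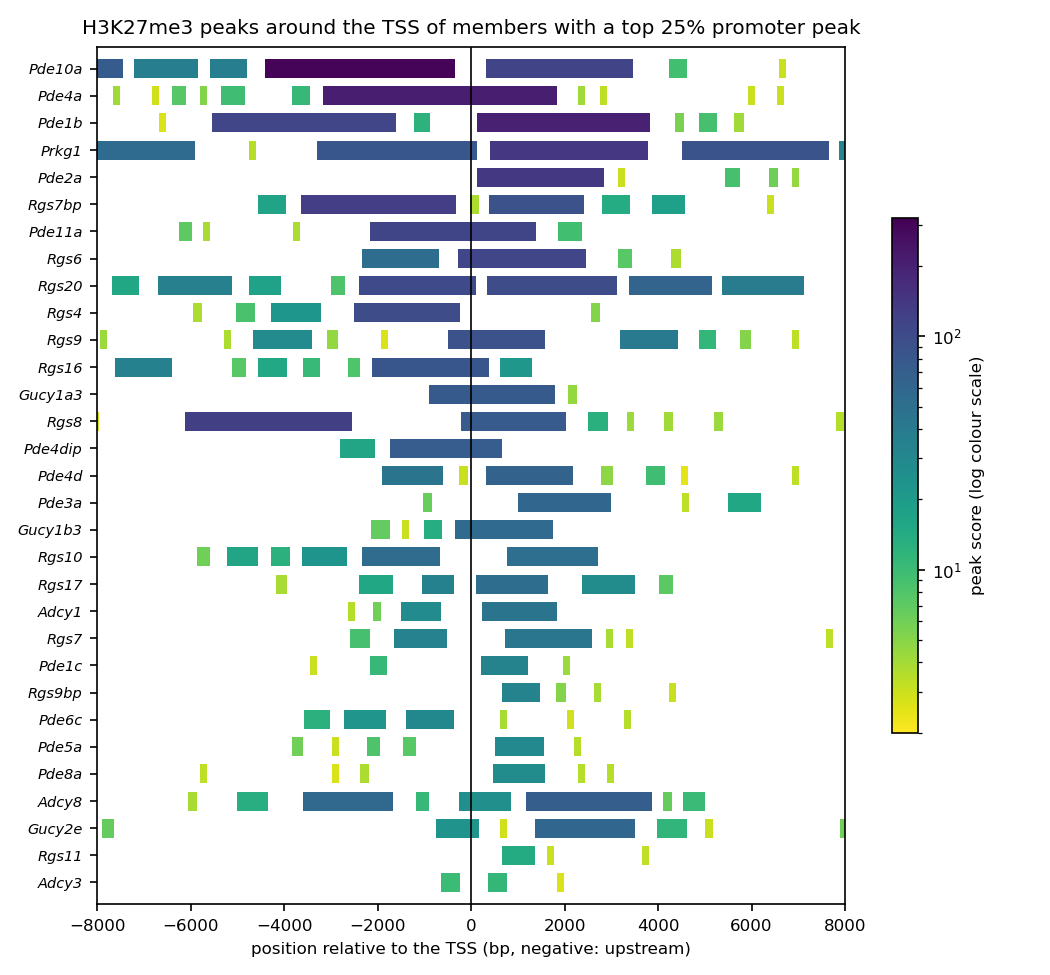
Peaks within 8000 bp of the TSS of the 31 members with a promoter peak in the top 25%, ordered by score from the top; the horizontal axis is the distance from the TSS in bp on the gene's strand (for genes with several TSS, that of the highest promoter peak), and colour is the score on a log scale. In 10 of the 31 rows peaks lie on both sides of the TSS with a gap at it (32.3%, background 32.6%). Both sides are broad at Pde10a, Rgs10 and Rgs7, for example, but not in all 10. Other rows show a single block across the TSS, as at Pde4a and Pde11a.

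The promoter peaks either held the TSS, lay on both sides of it with a gap, or lay on 1 side alone. At 11 members (18.0%, background 10.7%) peaks lay on both sides of a TSS and none held it. Of the 44 with a promoter peak that is 25% (background 27.7%), and of the 31 in the top 25% it is 10 genes (32.3%, background 32.6%), both close to the background. A peak held the TSS at 17 of the 44 (38.6%, background 35.9%) and at 15 of the 31 (48.4%, background 47.1%). The other 16 of the 44 had promoter peaks on 1 side only (36.4%, background 36.5%), among them Rgs4, upstream, and Pde5a, Pde8a, Pde1c, Rgs11 and Rgs9bp, downstream. The gap was 659 bp at Pde10a, 1002 bp at Pde1b, 885.5 bp at Adcy1, 460.5 bp at Rgs17, 1233 bp at Rgs7 and 1436.5 bp at Rgs10. The narrowest was 393 bp, at the strongest TSS of Pde4d, and the widest 1828 bp, at Pde3a. At Pde4d a call of 189 bp scoring 3.09, between the TSS and the broad upstream peak, bounds the gap upstream. The nearer edges of the broad peaks there lay 598 bp upstream and 327.5 bp downstream of the TSS. The median over the 11 was 984.5 bp, against 666.5 bp over 1134 genes, and the definition allows no gap above 2000 bp. The highest promoter peak was more often centred downstream of the TSS than upstream. This was so at 30 of the 44 (68.2%), against 56.6% of all genes with a promoter peak. Some of these peaks also reached upstream across the TSS, as at Gucy1a3 and Rgs9.

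**Figure D4:**
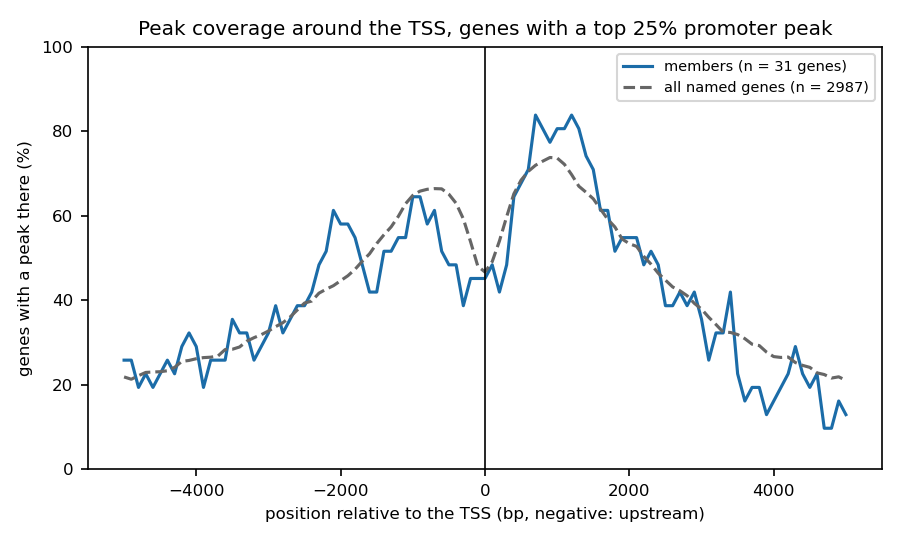
Share of genes, in percent, with a peak at each position from 5000 bp upstream to 5000 bp downstream of the TSS, in steps of 100 bp, for the 31 members (solid) and all 2987 genes (dashed) with a promoter peak in the top 25%. The curve of all genes dips at the TSS, to 46.7%, and that of the members is low from 300 bp upstream (12 of 31) to the TSS (14 of 31) and beyond; at 1000 bp downstream 25 of 31 members and 73.7% of all genes are covered.

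Coverage by position needs no definition of pairs. At the TSS itself 14 of the 31 members were covered (45.2%), against 46.7% of all genes with such a peak. At 700 bp downstream 26 of 31 were covered, against 72.0%, and at 1000 bp upstream 20 of 31 (64.5%) against 64.9%. The lowest value near the TSS was 12 of 31 members (38.7%) at 300 bp upstream, where 59.3% of all genes were covered. With 31 genes, a single gene moves these shares by several percentage points.

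Most peaks assigned to these genes, as to all genes, lay away from promoters. The 1035 peaks that name the members were 37.4% intronic by their centre, against 21.8% of all peaks, and 59.7% intergenic, against 74.7%. A member was named by a median of 12 peaks, against 7 for all named genes. At 32 of the 61 members (52.5%) the highest peak of all was not a promoter peak, against a background of 76.1% of all named genes. Genes without a promoter peak, 17 of the members, count here by definition. The contrast is therefore in part that of the shares with a promoter peak given above. Promoter peaks made up 7.44% of the members' peaks and 4.81% of all peaks. Rgs8 had the second highest peak of this kind, 6467 bp with a score of 263.2 (249 to 278), centred 22194 bp upstream of its TSS (chromosome 13, 76047290 to 76053757), followed by 3577 bp with 124.4 at 4338 bp upstream. Both exceeded the 75.3 of its promoter. Apart from the promoter peaks of both genes, the peaks between Rgs8 and Rgs16, whose TSS lies 72613 bp further on, scored 46.2 at most.

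Pde6b showed the same on a larger scale. Its promoter peaks scored 3.71 at most, but intergenic peaks of 5212 bp (273.9, 259 to 289; chromosome 14, 2384776 to 2389988) and 5288 bp (258.0, 244 to 273; 2391231 to 2396519) were centred 16571 and 23064 bp upstream, and peaks of 97.8 and 66.8 lay in intron 1. Since a peak names only the gene with the nearest TSS, these domains are not shown to belong to Pde6b. Rgs2, with its bare promoter, had a peak of 2398 bp with 68.5 centred 4764 bp upstream, and Pde4c one of 1606 bp with 57.5 centred 4434 bp upstream.

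**Figure D5:**
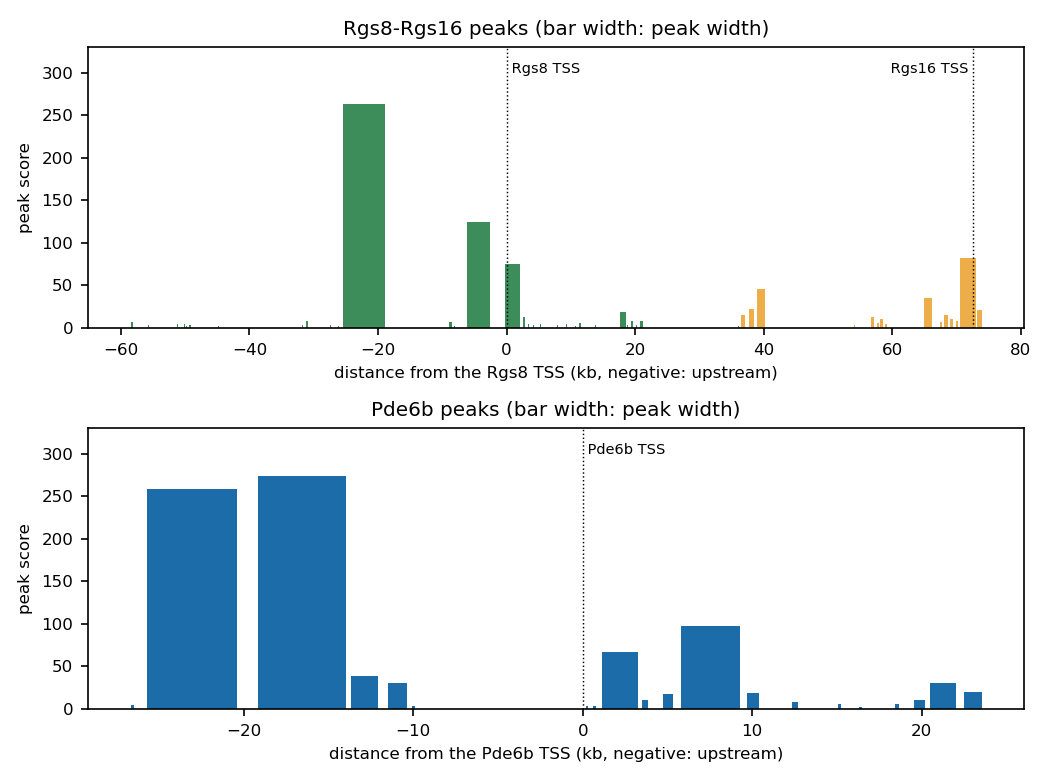
Peaks assigned to Rgs8 and Rgs16 (upper panel, green and yellow) and to Pde6b (lower panel), with the distance from the Rgs8 or Pde6b TSS in kb on the horizontal axis and the peak score on the vertical axis; bar width is peak width and dotted lines mark the TSS. The highest bars, 263.2 at Rgs8 and 273.9 and 258.0 at Pde6b, stand upstream of the TSS, away from the promoter.

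The limit of 1000 bp cuts close to some genes. Just inside it lay Pde3a (its nearest edge 836 bp from the TSS), Gucy2c (827 bp) and Gucy2g (676 bp). Just outside lay Adcy5 (1068 bp), Pde3b (1080 bp), Pde6a (1106.5 bp) and Rgs14 (1265.5 bp). Both promoter peaks of Pde3a lay near the limit, the one scoring 6.39 with its edge at 836 bp and the one scoring 60.6 at 992 bp. The GRCr8 table holds 72 genes with matching symbols. The 11 that no peak names, Adcy9, Adcy10, Pde6d, Pde6g, Rgs12, Rgs13, Rgs18, Rgs19, Rgs22, Rgs12l1 and Rgs22l, may be unmarked or may be missing from the annotation that the authors used, which cannot be told apart. Counted as without a promoter peak they bring the share to 44 of 72 (61.1%), against 17.2% of the 23154 protein-coding genes of that table. Of those 23154 genes 12867 are named by no peak, and the same doubt holds for them. How far the difference between these shares comes from the coverage of the authors' annotation was not tested.

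The rest of the pathway was followed through 4 lists. Of 25 genes for receptors that raise cyclic AMP and for G alpha subunits 23 were named. Of these 18 had a promoter peak, all in the top 25% (median score 74.7; all named genes 38.4% and 28.1%). Crhr1, the receptor of corticotropin-releasing hormone, had 338.1, the prostaglandin receptor Ptger2 209.2, the VIP receptor Vipr1 208.3 and the parathyroid hormone receptor Pth1r 199.3. Gnas, which encodes the stimulatory alpha subunit, had 69.7. Gnai2 and Gnaz had no promoter peak, and no peak names Adgrg6 or Gnai3.

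Of 26 genes for proteins that read cyclic AMP 17 were named. Of these 10 had a promoter peak, 8 in the top 25% (all named genes 38.4% and 28.1%). They were led by Popdc3 (128.3), which binds cyclic AMP in the membrane, the kinase inhibitor gene Pkib (93.0) and the anchors Akap5 (82.7) and Akap6 (75.5). Of the kinase A subunits only Prkar2b had a promoter peak (36.1). Prkacb, Prkar1a and Prkar1b had none, and no peak names Prkaca, Prkar2a or the coactivators Crtc1, Crtc2 and Crtc3. Of the CREB genes, Creb1 and Crem had no promoter peak, but Creb5 had one scoring 59.2, in the top 25%. The Epac gene Rapgef3 had one scoring 5.36, and no peak names Rapgef4. Of 21 genes for inputs to cyclic GMP and for cyclic nucleotide channels 17 were named. Of these 10 had a promoter peak, 8 in the top 25% (all named genes 38.4% and 28.1%). The pacemaker channel Hcn4 (169.3), the natriuretic peptide gene Nppc (82.5) and Hcn2 (64.2) were highest, and Nos1, Nos3 and Npr1 had none.

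Of 25 genes tied to the response of Schwann cells to cyclic AMP 19 were named and 14 had a promoter peak, 11 in the top 25%. Sox2 (1929.9) and Pou3f2 (573.4) were highest, followed by the neurotrophin receptor Ngfr (288.4) and Pou3f1 (272.7). The adhesion gene Cdh2 had 203.8, Gap43 140.5, Ncam1 105.4 and Egr2 72.6, while Pmp22, Mag and Jun had none. Genes that cyclic AMP is known to induce in Schwann cells, such as Egr2 and Pou3f1, and genes that it is known to reduce, such as Ngfr and Ncam1, are both among those marked. The shares of named genes with a promoter peak were 78.3% (58.1 to 90.3%) for receptors and G proteins, 58.8% (36.0 to 78.4%) for effectors, 58.8% for the cyclic GMP list and 73.7% (51.2 to 88.2%) for the Schwann cell list, each against the 38.4% of all named genes. Of all named genes 28.1% had a promoter peak in the top 25%. The Wilson intervals of the 4 lists overlap, and their differences were not tested.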

How the data were processed

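Peaks of the combined H3K27me3 sham libraries were annotated with HOMER on rn5, per the file headers. CASAVA 1.8.2, Bowtie and HOMER are named in the submitters' processing notes. For peak settings, the role of the input and the merging of libraries, the answer is not given in the sources used here. Each peak's score is the authors' deposited value, with no stated scale, and served to rank and filter peaks of this list. Scores under 10 (97601 peaks) were whole multiples of 0.206267 in 100% of cases, within 0.005. Widths, coordinates and distances in bp come from the same deposited table.

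All 61 members matched the RefSeq table of GRCr8 by gene identifier, 4 under another symbol. That table gave names, lengths, neighbours and sequences. Promoter calls, 95% Wilson intervals for shares and exact 95% Poisson intervals for scores were computed with Python 3.11.15, pandas 2.3.3 and scipy 1.17.1, and the calls were checked on simulated peaks. No test was run, since the list has no value per library. Any member could be named. The pathway lists contribute their 4 highest genes and up to 3 without a promoter peak in list order, and other pathway genes were named after their values were seen. Some genes that this rule takes are not reported here. Members, lists and rules were chosen with earlier results of these data known. Alternatives changed the reach, the annotation class, the score or width minimum, the members and the denominator.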

Additional observations from a re-analysis of the deposited data

How the results depend on the processing

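The share of members with a promoter peak exceeded that of all named genes under each of the 7 definitions. With a reach of 0 bp it was 17 members (27.87%, all named genes 13.78%), in the promoter-TSS class alone 18 (29.51%, 18.43%), with a width of at least 2000 bp 16 (26.23%, 15.24%), in the top 25% of scores 31 (50.82%, 28.05%), at or above the median score 38 (62.3%, 32.66%) and with a reach of 5000 bp 51 (83.61%, 61.93%). Under reach 0, promoter-TSS class and width of at least 2000 bp, in that order, the Pde family had 5, 8 and 6 genes, Adcy 1, 3 and 0, Gucy 4, 4 and 2, Rgs 6, 3 and 7, the receptor list 9, 11 and 10, the effector list 2, 6 and 4, the cyclic GMP list 2, 6 and 2 and the Schwann cell list 4, 5 and 9. Prkg had 0 in the promoter-TSS class. In the top 25% Adcy and Gucy had 3 each. The median highest score moved from 38.35 to 75.3 (reach 0), 11.95 (promoter-TSS class), 107.2 (width) and 65.8 (top 25%), and the median width from 1330 bp to 2245, 396, 2726 and 2074 bp. These changes follow from the definitions, which keep fewer or more peaks. The split by gene length was chosen after seeing the data. No paired analysis was possible because the list has no value per library, and for the same reason no library could be left out. The depth of the libraries is unknown, so how weak a peak the list could have held cannot be given.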

Other observations

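Some of the highest peaks that name these genes lay far from any of their promoters. Gucy2f, a guanylyl cyclase of the retina, was named by a peak 5795 bp wide that scored 175.9 (164 to 188) and was centred 452298 bp from its TSS (X, 111465264 to 111471059), with a neighbour of 87.0, whereas its promoter peak scored 7.63. Gucy1b2 was named by a peak with 72.2 centred 153987 bp upstream and Pde4b by one with 86.4 centred 195016 bp upstream. Peaks of 5000 bp or more made up 4 of the 1035 peaks of the members, against 1.01% of all peaks, and those 4 belonged to Gucy2f, Pde6b and Rgs8. All of these are assigned by the nearest TSS in the authors' annotation alone.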
